A study of Mus musculus with 6 samples.

Results

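The genes described here encode the proteins that hold a cell in G1. They are the 3 Cip/Kip inhibitors of cyclin-dependent kinases (CDKs) Cdkn1a, Cdkn1b and Cdkn1c, the 4 Ink4 inhibitors Cdkn2a, Cdkn2b, Cdkn2c and Cdkn2d, and the 3 retinoblastoma pocket protein genes Rb1, Rbl1 and Rbl2. They were chosen by name as 10 of the 22180 genes measured, each read from the row of the expression table that the platform annotation gives to that gene alone. Where Rb1 had more than 1 such row, the row with the highest mean stood for it. Total RNA was measured on arrays from Dgcr8-/- mouse embryonic stem cells (ESCs). In 3 samples they carried a control hairpin, and in 3 they carried sh-miR-302 and, per the labels, expressed mimics of miR-302. The Dgcr8 knockout is shared by both groups, so the control cells are not wild type, and the comparison holds no cell with its own miRNAs. The labels name neither the promoter of the hairpin, the cell clones nor the family member of miR-302 that was expressed.

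CDKs bound to D-type and E-type cyclins drive a cell from G1 into S phase. Ink4 proteins bind Cdk4 and Cdk6 and keep D-type cyclins off them, whereas Cip/Kip proteins bind cyclin and CDK together and chiefly restrain Cdk2. Pocket proteins hold E2F transcription factors in check until CDKs phosphorylate them. Mouse ESCs have a short G1 phase, and Dgcr8-/- ESCs, which cannot cut primary miRNA transcripts, are known to accumulate in G1. Members of the miR-290 and miR-302 families restore their entry into S phase, and Cdkn1a and Rbl2 are reported targets of miRNAs with this seed.

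Listed miR-302 sequences and miR-290 cluster members are shown because the seed defines the family; no miRNA level was used here. Bases 2 to 8, the seed through which a miRNA pairs with its targets, are in capitals, and the sequences are those of RefSeq on GRCm38.p6.
mmu-miR-302b-3p: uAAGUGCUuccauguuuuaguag
mmu-miR-302d-3p: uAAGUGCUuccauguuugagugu
mmu-miR-302c-3p: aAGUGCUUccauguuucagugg
mmu-miR-291a-3p: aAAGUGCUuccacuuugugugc
mmu-miR-294-3p: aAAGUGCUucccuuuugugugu
mmu-miR-295-3p: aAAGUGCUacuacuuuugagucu
The seed AAGUGCU was found in 5 of the 1679 mature miRNA names of the table, namely miR-302b-3p and miR-302d-3p on chromosome 3 and miR-291a-3p, miR-294-3p and miR-295-3p of the miR-290 cluster on chromosome 7. The listed miR-302c-3p begins 1 base later, so its bases 2 to 8 read AGUGCUU. No miR-302a-3p was among the names read, so it is not shown. The labels do not say which miR-302 sequence the hairpin encodes.

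With miR-302, 1 of the 10 genes was higher, 3 were lower and 6 were not called. The gene that rose was Cdkn1c, 3.72-fold. Those that fell were Cdkn1b, Rbl1 and Rbl2, by 1.40-fold to 1.69-fold. None of the 4 Ink4 genes was called. A gene is called here when its adjusted p is under 0.05 in a limma fit across all 22180 genes (moderated test, Benjamini-Hochberg adjustment). In the same fit 7.18% of all genes were called higher and 9.25% lower, or 16.4% in either direction. The median log2 change of the 10 genes was −0.20 and that of all genes 0.01. The values of the 2 groups did not overlap for 7 of the 10 genes, and for 35.8% of all genes. When miR-302 replicate 1 was left out, 1 of the 10 genes was higher (11.2% of all genes) and 4 were lower (13.1% of all genes), Rb1 being the added gene. Without any other single array, 0 were higher (3.09% to 3.88% of all genes) and 2 or 3 were lower (4.7% to 5.48% of all genes).

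**Figure D1:**
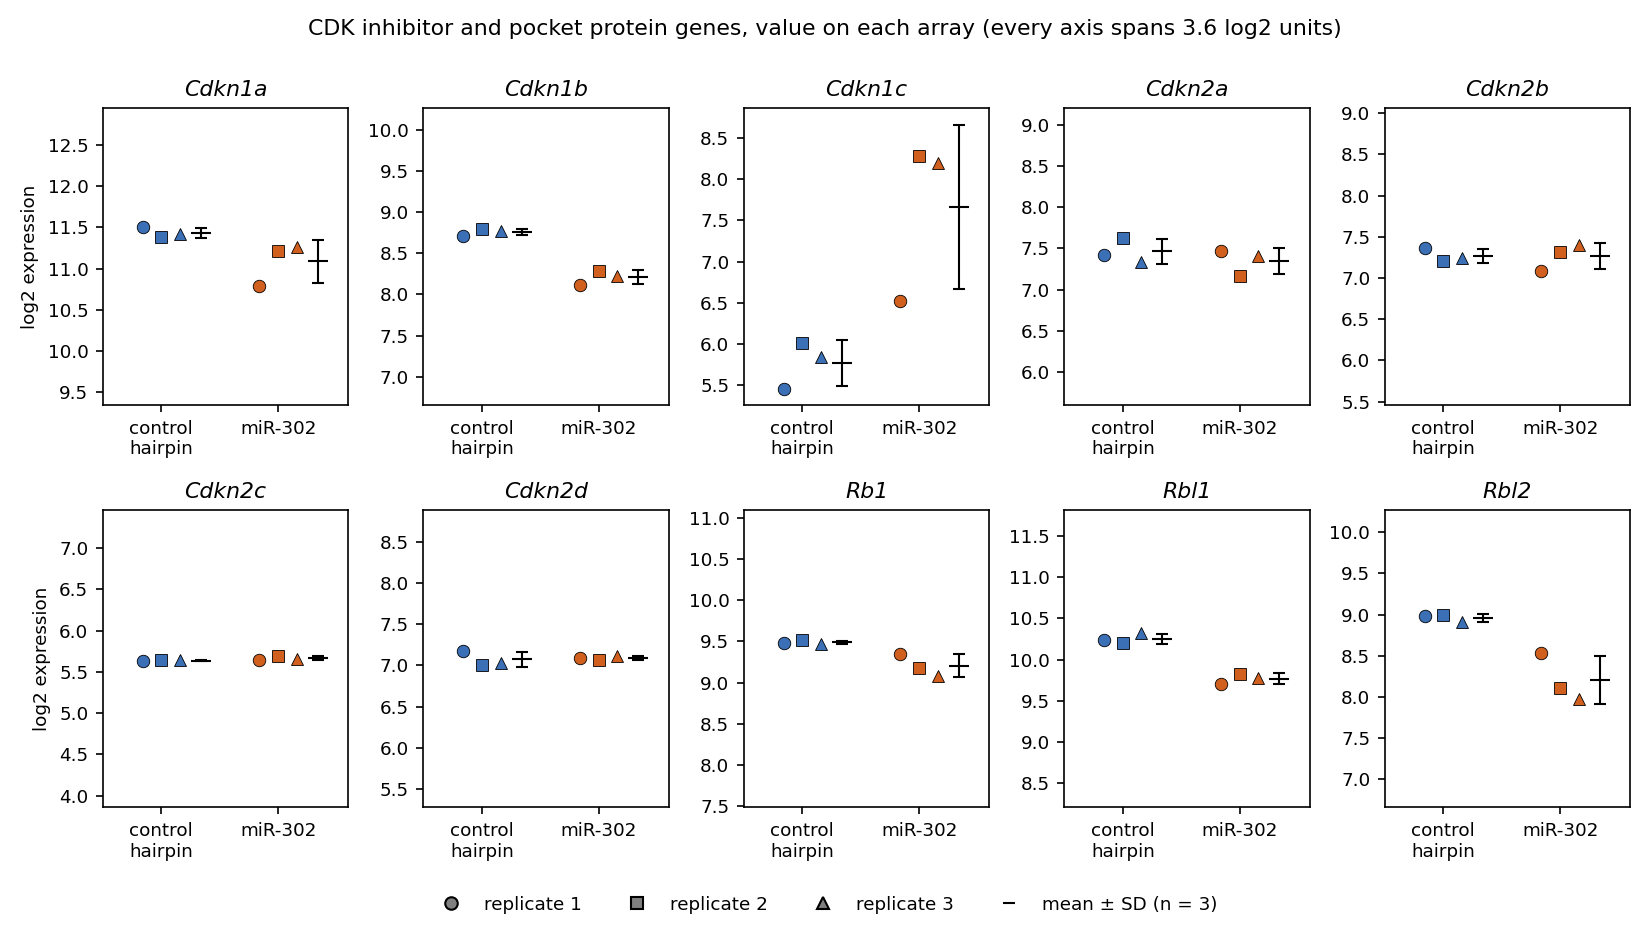
Expression of the 10 genes on each of the 6 arrays, in log2 units, with control hairpin samples in blue and miR-302 samples in orange; symbols mark the replicate number and the bars mean ± SD (n = 3). Cdkn1c is higher on the miR-302 arrays, with replicate 1 at 6.52 well below replicates 2 and 3, whereas Cdkn1b, Rbl1 and Rbl2 are lower on all 3 and the 4 Ink4 genes lie close together.

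The 3 miR-302 arrays were not alike. Across all genes, replicates 2 and 3 correlated with each other at r = 0.996 and replicate 1 with either at r = 0.990, while the control arrays correlated among themselves at 0.996 to 0.997. For this reason the results on the 10 genes, and the list counts that moved by over 1.5 times, are also given without miR-302 replicate 1. Of 12 ESC markers measured 0 were called (0 higher and 3 lower without miR-302 replicate 1). All but Dppa5a (5.24 to 5.75) lay above the median level of all genes (6.16) on each array. Nanog, for one, was at 12.85 ± 0.03 (SD, n = 3) and 12.74 ± 0.15 in the 2 groups. The 3 called lower without miR-302 replicate 1 were Sox2 (−0.44), Zfp42 (−0.37) and Fgf4 (−0.41, named after its value was seen). Of 10 primitive endoderm markers 5 were higher and 1 lower, of 10 fibroblast markers 0 and 2, and of 5 neural markers 0 and 2. When miR-302 replicate 1 was left out, 1 fibroblast marker was higher and 4 were lower, and 3 neural markers were lower, while leaving out any other array gave 3 primitive endoderm markers higher and 0 lower, 0 or 1 fibroblast marker higher and 1 lower, and 1 or 2 neural markers lower. The row of Dgcr8 is shared with Mir1306 and was at 8.20 to 8.29 in control cells and 7.97 to 8.09 with miR-302, which does not check the knockout. Without detection calls, low levels may be background. With 3 arrays a group, the precision of each value is limited.

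Cdkn1b encodes p27Kip1, which binds and inhibits Cdk2 complexes. It was at 8.71, 8.79 and 8.77 in the control samples and at 8.12, 8.29 and 8.22 with miR-302. All 3 miR-302 samples lay below all 3 controls, with 0.42 between the nearest values. Its log2 level fell from 8.76 ± 0.04 (SD, n = 3) to 8.21 ± 0.09, by 0.55 ± 0.07 (SE), which is 1.46-fold (limma, adjusted p = 0.00515). The call was kept whichever of the 6 arrays was left out.

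Cdkn1a encodes p21Cip1, a textbook target of p53, the factor in the series title. It was at 11.50, 11.38 and 11.42 in control cells and at 10.79, 11.21 and 11.26 with miR-302. The groups did not overlap, but the miR-302 samples were spread, with replicate 1 lowest. The log2 change was −0.35 ± 0.13 (SE; 95% confidence interval −0.66 to −0.03, before adjustment) and was not called (limma, adjusted p = 0.131). Without miR-302 replicate 1 the change was −0.20 (adjusted p = 0.0951), and over the alternatives tried its adjusted p ranged from 0.0741 to 0.290. The interval leaves room for a decrease of the size measured for Cdkn1b.

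Cdkn1c encodes p57Kip2, the inhibitor used by differentiating cells such as trophoblast giant cells, and is an imprinted gene expressed from the maternal copy. It was at 5.46, 6.01 and 5.84 in control cells and at 6.52, 8.28 and 8.20 with miR-302. All control values lay below the median level of all genes (6.16) and may be background. The groups did not overlap, but replicate 1 lay 0.51 above the highest control and far below the other miR-302 samples. Its level rose from 5.77 ± 0.28 (SD, n = 3) to 7.67 ± 0.99, that is by 1.90 ± 0.46 (SE) on the log2 scale (limma, adjusted p = 0.0353). Without miR-302 replicate 1 the change was 2.47 (adjusted p = 0.000492). Without any 1 of the other 5 arrays it lay between 1.59 and 2.02 and was no longer called, with adjusted p from 0.0848 to 0.117.

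Several genes of the imprinted domain that holds Cdkn1c were on the arrays. Phlda2, an imprinted gene that limits placental growth, was at 6.47, 6.52 and 6.38 in control cells and at 6.59, 7.94 and 7.80 with miR-302. As with Cdkn1c, replicate 1 was the lowest of the miR-302 samples. The log2 change of Phlda2 was 0.99 ± 0.34 (SE; adjusted p = 0.0975), and of the 6 arrays only the omission of miR-302 replicate 1 brought it past the threshold. Ascl2, a transcription factor gene needed for trophoblast, rose by 1.82 ± 0.17 on the log2 scale (limma, adjusted p = 0.00163). Kcnq1ot1, the long noncoding RNA that silences the domain on the paternal copy, was at 8.11 ± 0.04 under the control hairpin and 8.38 ± 0.13 with miR-302 and was not called (adjusted p = 0.0778), but it too passed the test without miR-302 replicate 1 (adjusted p = 0.0126). The other listed neighbours of Cdkn1c did not follow: Kcnq1, Slc22a18, Nap1l4 and Cd81 changed by 0.08, −0.13, −0.02 and 0.01 and were not called. In the list of 9 neighbours of Cdkn1c and of the Ink4 genes, 1 was higher, 0 lower and 8 not called, with a median log2 change of 0.01. Without miR-302 replicate 1, 3 were higher.

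Markers of trophectoderm, a lineage in which Cdkn1c and Ascl2 are expressed, were higher in the same samples. Of 11 measured, 8 were higher, 0 lower and 3 not called, Ascl2 among the 8. Without miR-302 replicate 1 all 11 were higher, and without any other single array 6 to 8. Their summed level, the log2 of the sum of their linear values, was 10.44 to 10.53 in control cells and 11.89 to 13.26 with miR-302. Replicate 1 had the lowest sum of the miR-302 samples, as it had the lowest Cdkn1c. On the miR-302 arrays Krt8 (10.43, 12.07 and 12.11) and Krt18 (9.86, 11.82 and 11.68) weighed most in the sum. Taken singly, Gata3 was highest in replicate 1 (7.78, 7.45 and 7.68), and the others of the 11 were lowest there. In control cells the means of Cdx2, Eomes, Elf5, Ascl2, Hand1, Tpbpa and Plac1 were 3.95 to 5.72, below the median level of all genes (6.16). Such levels may be background, and the lowest value on any array was 3.87. The sum of the primitive endoderm markers was higher with miR-302 as well, at 10.47, 10.53 and 10.59 against 9.49 to 9.58 in control cells. Its lowest miR-302 value was again that of replicate 1. The part of cells of either lineage in the rise of Cdkn1c was not tested. In these bulk samples, more cells of a type and more RNA per cell cannot be told apart.

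**Figure D2:**
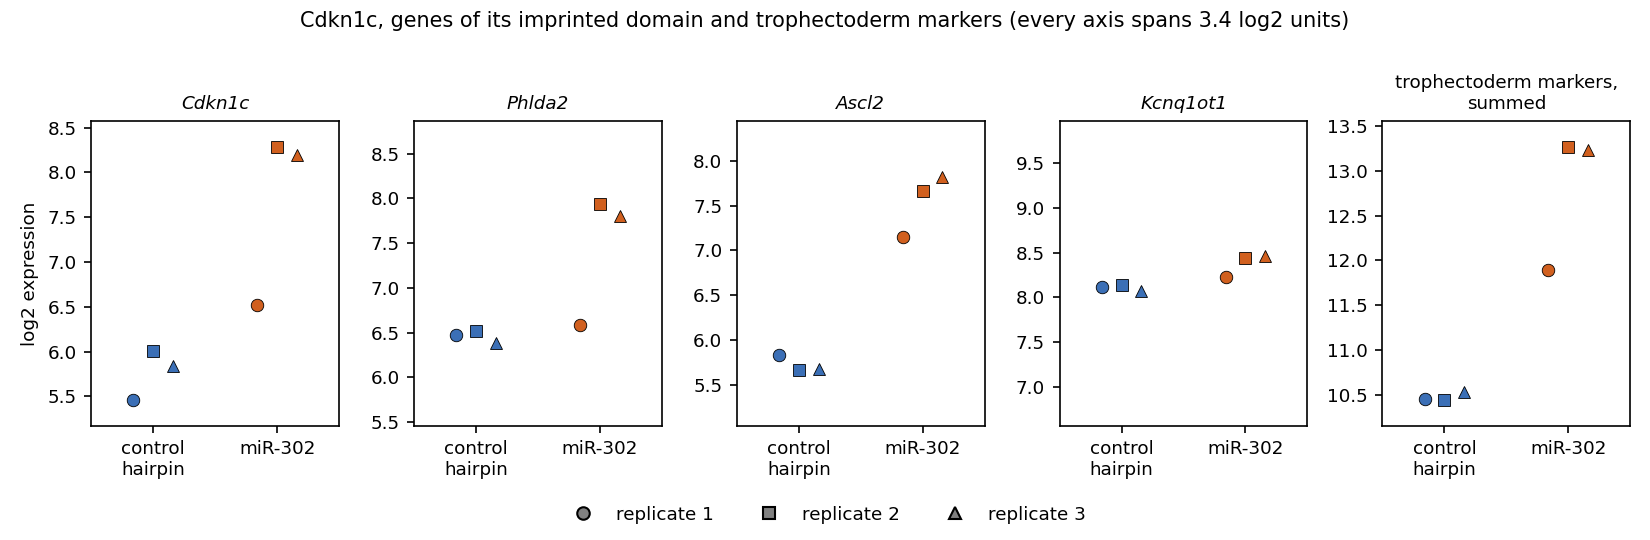
Log2 expression on each array of Cdkn1c, of 3 genes from its imprinted domain, and the summed level of 11 trophectoderm markers. Control hairpin is in blue and miR-302 in orange. Phlda2, Ascl2 and Kcnq1ot1 are the 3 listed neighbours with the smallest p. Krt8 and Krt18 weigh most in the sum on the miR-302 arrays. In each panel miR-302 replicate 1 (circle) is the lowest of the 3 miR-302 samples.

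None of the 4 Ink4 genes was called in the full fit or in the alternatives run for it; Cdkn2c was not tested in the one limited to genes above the median level. Cdkn2a, whose locus encodes both p16Ink4a and the Mdm2 antagonist p19Arf, was at 7.42, 7.63 and 7.34 in control cells and at 7.47, 7.17 and 7.41 with miR-302. Its single row does not separate the 2 products, and the groups overlapped (log2 change −0.11, 95% confidence interval −0.39 to 0.16). Cdkn2b, which encodes p15Ink4b, an inhibitor induced by TGF-beta in many cell types, was at 7.37, 7.21 and 7.24 against 7.09, 7.32 and 7.40. The interval of its log2 change ran from −0.24 to 0.24.

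Cdkn2c encodes p18Ink4c and was at 5.63, 5.64 and 5.64 in control cells and at 5.65, 5.69 and 5.66 with miR-302. Its groups did not overlap, by 0.01, the last decimal of the table, and the interval of the change was −0.12 to 0.18. Its mean over all arrays, alone among the 10 genes, was below the median level of all genes (6.16). Cdkn2d, which encodes p19Ink4d, was at 7.18, 7.01 and 7.03 against 7.09, 7.06 and 7.11, with an interval of −0.16 to 0.19. For Cdkn2b, Cdkn2c and Cdkn2d the intervals bound a change in either direction at 0.24 or less on the log2 scale, before adjustment. The sign of the changes of Cdkn2b and Cdkn2d depended on the setting.

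**Figure D3:**
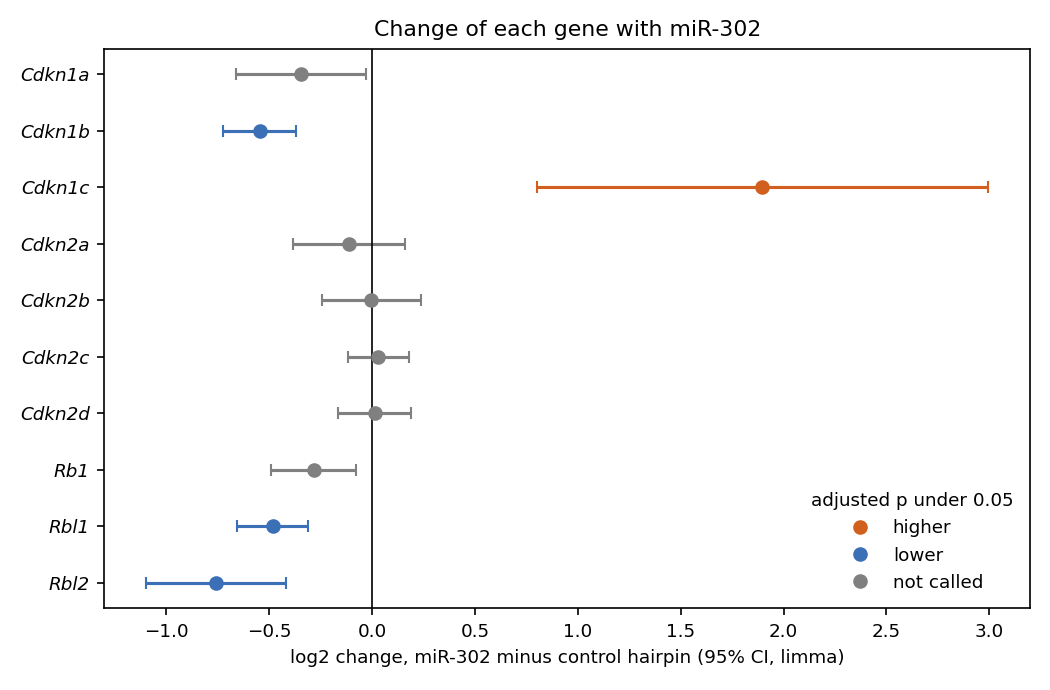
Log2 change of each gene, miR-302 minus control hairpin, with its 95% confidence interval from limma; orange marks genes called higher, blue genes called lower and grey genes not called at an adjusted p of 0.05. The 4 Ink4 genes lie between −0.11 and 0.03, and the 3 pocket protein genes between −0.76 and −0.28.

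Each of the 3 pocket protein genes had lower values with miR-302 and groups that did not overlap, and 2 were called. Of all genes, 19% were lower without overlap and 9.25% were called lower. Rbl2 encodes p130, the pocket protein typical of resting cells, where it holds E2f4 in the repressive DREAM complex. It was at 8.98, 9.00 and 8.91 in control cells and at 8.53, 8.11 and 7.98 with miR-302. Replicate 1 was the highest of the miR-302 samples, between the controls and the other two. Rbl2 fell by 0.76 ± 0.14 (SE) on the log2 scale, 1.69-fold (limma, adjusted p = 0.0152). The change was −0.92 without miR-302 replicate 1 (adjusted p = 0.000811). The call was also kept without miR-302 replicate 3 (adjusted p = 0.0460) and was lost without any 1 of the other 4 arrays, with adjusted p from 0.0530 to 0.0603. An unmoderated test did not call it either (adjusted p = 0.0727).

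Rbl1 encodes p107, which is made in cycling cells and whose gene is itself repressed through E2F sites. It was at 10.24, 10.20 and 10.32 in control cells and at 9.70, 9.83 and 9.78 with miR-302. Neither group was spread, and 0.37 separated them. Rbl1 fell from 10.25 ± 0.06 (SD, n = 3) to 9.77 ± 0.07, by 0.48 ± 0.07 (SE) or 1.40-fold (limma, adjusted p = 0.00729). The call was kept whichever array was left out.

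Rb1 encodes the retinoblastoma protein pRB, which binds the activating E2F factors. It was at 9.48, 9.51 and 9.47 in control cells and at 9.35, 9.18 and 9.08 with miR-302. Replicate 1 was closest to the controls, as for Rbl2. The log2 change was −0.28 ± 0.09 (SE; 95% confidence interval −0.49 to −0.08) and was not called (adjusted p = 0.0720). It was called without miR-302 replicate 1 (−0.36, adjusted p = 0.0136) and among genes at or above the median level (adjusted p = 0.0290). The same held with an intensity trend and robust prior together (adjusted p = 0.0276) and with array weights (adjusted p = 0.0135). With the mean of both Rb1 rows it was called too (adjusted p = 0.0432). In turn, these settings called 24.3%, 38.7%, 20.7%, 25.3% and 16.1% of the genes tested, against 16.4% in the full fit. Rb1 was not called without any other single array or in the other alternatives (limma or unmoderated, adjusted p up to 0.192). The other row of Rb1 was at 5.15, 5.09 and 5.58 in control cells and at 4.87, 4.74 and 4.46 with miR-302, with a log2 change of −0.58 (adjusted p = 0.0554, each row tested on its own).

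The changes of the 3 pocket protein genes were compared with each other within arrays. The log2 change of Rbl2 minus that of Rb1 was −0.47, and the within-array differences of the 2 groups did not overlap (exact permutation test, two-sided, p = 0.1, the smallest that 3 against 3 arrays allow; 0.3 adjusted over the 3 pairs). The difference was −0.27 between Rbl2 and Rbl1 (exact p = 0.4, adjusted 0.4) and −0.20 between Rbl1 and Rb1 (exact p = 0.2, adjusted 0.3). With this number of arrays the permutation test cannot give a p under 0.05 for such a pair, and no order among the 3 changes is drawn from it.

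**Figure D4:**
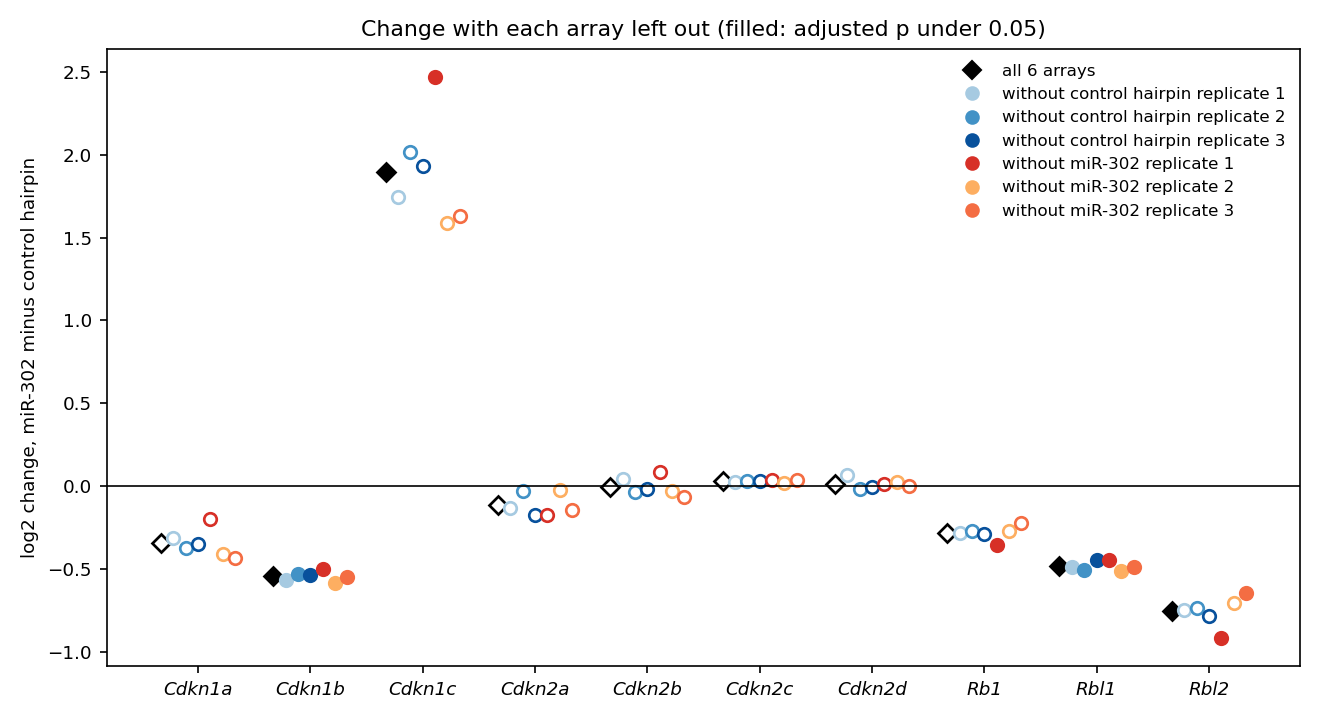
Log2 change of each gene, miR-302 minus control hairpin, with all 6 arrays (diamonds) and with each array left out in turn (circles), filled where the adjusted p is under 0.05. Cdkn1b and Rbl1 stay filled in each fit, while Cdkn1c, at 1.90 with all arrays, is filled only with all arrays and without miR-302 replicate 1.

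Promoters from 250 bases before to 50 bases after the start site were read from RefSeq (GRCm38.p6) for 8 of the 10 genes, which had 11 promoters listed, and not for Cdkn1c and Rb1. They were searched on both strands for the E2F letters TTTCGCGC and TTTGGCGC and for the CHR letters TTTGAA and TTCGAA, at which MuvB complexes bind. An E2F match was found in 0.813% of 32851 promoters in the table. Among the 10 genes it was found for Rbl1, at 18 bases before the start site, in the 30 bases at chr2:157204535-157204564 on the minus strand, where the match is in capitals and the sequence is shown because Rbl1 is a gene that fell.
Rbl1: caagaaggcgatTTTCGCGCgctttgtcgc
A CHR match was found in 19.2% of promoters and, among these genes, for Rbl2 and Cdkn2b. A match to these letters is not evidence of a bound site.

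Genes that act with the inhibitors and pocket proteins were read from 8 lists with 94 measured genes, of which 10 were higher, 9 lower and 75 not called (median log2 change −0.04), beside the 7.18% and 9.25% of all genes. Of the 19 called, 10 kept their call whichever array was left out, and 9 lost it for at least 1 array.

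Among cyclins and kinases of G1 and S phase and their activators, 2 of 12 were higher and 3 lower (median −0.16), but 1 and 2 at the fewest over the fits with 1 array left out. The D-type cyclin genes Ccnd1 and Ccnd2 fell and Ccnd3 rose. Ccnd1 went from 11.79 ± 0.05 (SD, n = 3) to 11.25 ± 0.05, and Ccnd3 from 10.71 ± 0.03 to 11.26 ± 0.06. Ccnd2 fell by 3.16 ± 0.13 (SE) on the log2 scale. These 3 calls were kept whichever array was left out. Cdk2, the kinase that Cip/Kip proteins chiefly restrain, fell by 0.34 (adjusted p = 0.0285), and Cdc25a, the phosphatase that activates it, rose by 0.25 (adjusted p = 0.0465), and of the 6 omissions of 1 array both calls survived that of miR-302 replicate 1. Cdk2 and Cdc25a were picked after seeing their values, not by the naming rule.

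Of the 10 E2F and DP genes, the partners of pocket proteins on DNA, 1 was higher and 1 lower (median −0.10), and 3 were lower without miR-302 replicate 1. E2f2, an activating factor, went from 7.49 ± 0.06 to 6.58 ± 0.16 (adjusted p = 0.00250). E2f6, a repressor that does not bind pocket proteins, went from 8.29 ± 0.03 to 8.88 ± 0.14 (adjusted p = 0.00714). E2f5, which pairs with Rbl2, changed by −0.26 ± 0.07 (SE) and was not called (adjusted p = 0.0554). Of 8 subunit genes of MuvB and the DREAM complex and their partners, 0 were higher and 1 was lower (median −0.12). Without miR-302 replicate 1, 2 were lower, beside 13.1% of all genes. Without any other single array 0 were lower, beside 4.7% to 5.48% of all genes. Lin9, a MuvB subunit gene, fell by 0.31 ± 0.07 (SE) on the log2 scale; of the 6 omissions, its call survived that of miR-302 replicate 1. Lin54 and Lin52, subunit genes of the same complex, changed by −0.27 ± 0.07 and −0.14 ± 0.07 and were not called (adjusted p = 0.05001 and 0.220).

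Of 11 chromatin partners of pocket proteins, 1 was higher and 3 were lower (median −0.12). Of these partners 3 rose and 3 fell once miR-302 replicate 1 was omitted, beside 11.2% and 13.1% of all genes. When the omitted array was another, 0 rose and at most 1 fell, beside 3.09% to 3.88% and 4.7% to 5.48% of all genes. The histone deacetylase gene Hdac2 changed by −0.34 ± 0.07 (SE) and Arid4a, which encodes a retinoblastoma-binding protein of Sin3 complexes, by −0.41 ± 0.08. Sin3b, a corepressor scaffold gene, rose by 0.58 ± 0.12. The third gene that fell was the deacetylase gene Hdac1, by 0.32 on the log2 scale, named after its value was seen. Leaving out single arrays ended the call of Hdac2 in 4 of 6 cases, that of Arid4a in 4 and those of Sin3b and Hdac1 in 5 each.

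Of 14 genes that control turnover of Cip/Kip proteins, 1 was higher and 1 lower (median 0.01). Cks1b encodes the cofactor with which the Skp2 ubiquitin ligase recognises p27Kip1. It was at 8.98, 8.87 and 8.91 in control cells and at 8.32, 8.29 and 7.82 with miR-302. All 3 miR-302 samples lay below the controls, with replicate 3 lowest. The log2 change of Cks1b was −0.78 ± 0.14 (SE; adjusted p = 0.0132), a call that ended without control hairpin replicate 1 or 3. Cul4b, a scaffold of ligases that degrade p21Cip1 on chromatin, rose by 0.46 ± 0.07, and Pcna, on which they act, changed by −0.23 ± 0.07 and was not called (adjusted p = 0.0583).

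Of 23 regulators of inhibitor transcription, 2 were higher, 0 lower and 21 not called (median 0.05). Of these regulators 4 rose and 3 fell once miR-302 replicate 1 was omitted (11.2% and 13.1% of all genes). When genes below the median level were dropped, 3 rose and 3 fell, beside 16.4% and 22.4% of the 11090 genes left. That filter also dropped Trp63, Trp73, Bmi1, Tbx2 and Ets1 from the list. Myc, which represses Cdkn1a and Cdkn2b through Miz1 in other cells, was at 7.36, 7.46 and 7.63 in control cells and at 8.52, 9.00 and 9.18 with miR-302. All miR-302 samples lay above the controls, and the log2 change was 1.42 ± 0.17 (SE; adjusted p = 0.00373). Cbx7, a Polycomb gene known to repress the Cdkn2a locus, went from 9.99 ± 0.05 to 10.51 ± 0.11 (adjusted p = 0.00824). Ezh2, the Polycomb methyltransferase gene, changed by −0.24 ± 0.07 (adjusted p = 0.0526, not called). Of 7 genes around p19Arf and Mdm2, 2 were higher and 0 lower (median 0.11); 1 was also lower without miR-302 replicate 1, and 1 was higher without any other single array. Mdm2, whose protein is bound by p19Arf and is induced by p53, rose by 0.62 ± 0.07. Trip12, a ubiquitin ligase gene for p19Arf, rose by 0.26 ± 0.07, and of the 6 omissions its call survived only that of miR-302 replicate 1. Usp7, a deubiquitinase gene that acts on Mdm2, changed by −0.17 ± 0.08 and was not called (adjusted p = 0.244).

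**Figure D5:**
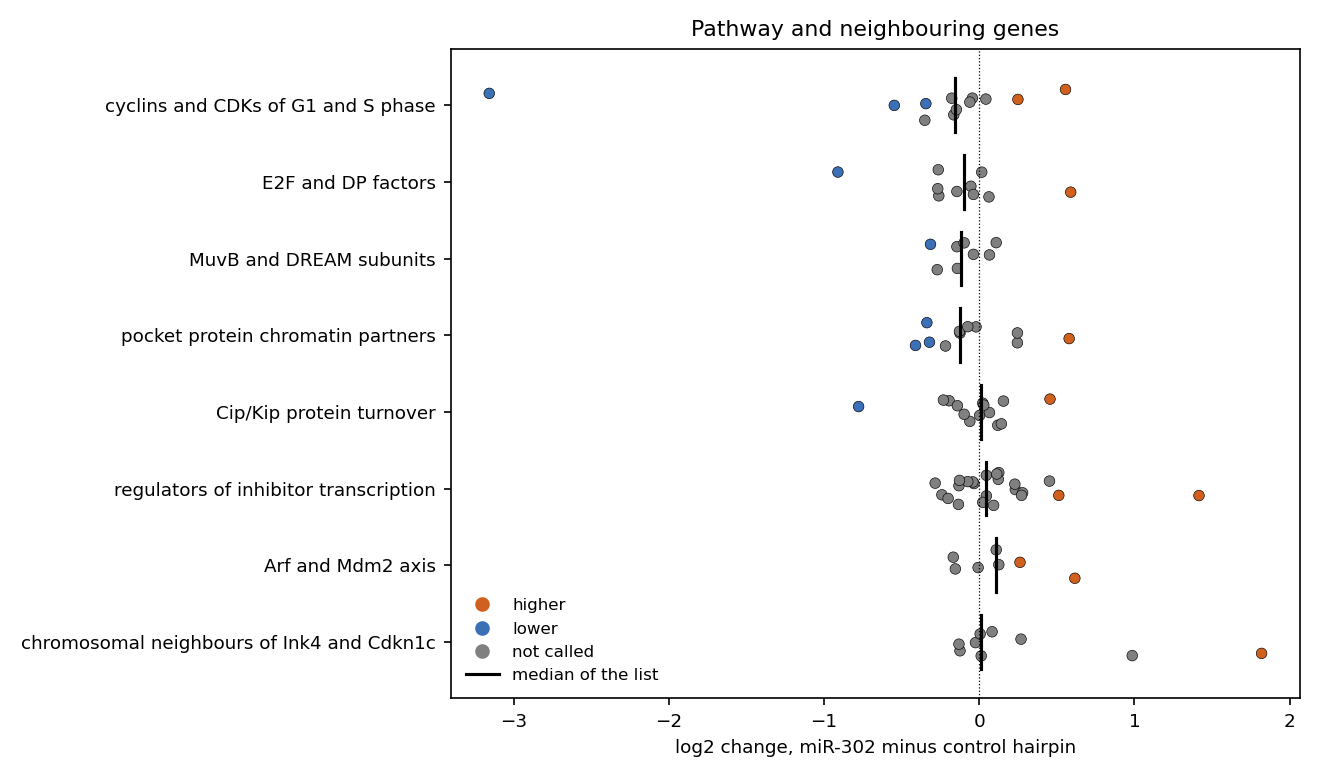
Log2 change, miR-302 minus control hairpin, of the genes in each of the 8 lists; points are genes, orange called higher, blue called lower and grey not called, and the black bars are list medians. The medians lie between −0.16 and 0.11, and Ccnd2 at −3.16 and Ascl2 at 1.82 are the outermost points.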

How the data were processed

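Total RNA of 6 samples was measured on single-colour arrays. The deposited log2 values were made by the authors with RMA, per the submitters' processing notes, which give no version, build or log base; base 2 was assumed as RMA's usual scale. RMA equalises the arrays' distributions and would hide a common shift of all genes. Of 33649 rows, 23521 have a single gene, 1814 several and 8314 none in the platform annotation; single-gene rows were used, the highest mean row per gene (22180 genes). Groups came from the sample titles. They are independent biological samples, per the series' design text.

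The test was limma's (version 3.58.1, R 4.3.3, lmFit and eBayes, two-sided, Benjamini-Hochberg). In simulated data, 60 of 22180 genes were changed by 1.5-fold, 73 by 2-fold and 67 by 4-fold. The test recovered 38.3%, 75.3% and 98.5% of them, with 11 false calls among 155. Far fewer genes were changed there than the 16.4% called in these data, and the adjustment is stricter when fewer genes change. The recovery may thus be understated for these data. Changes of 1.5-fold or less may still be missed. Log2 changes are miR-302 means minus control means, with limma's moderated SE. Alternatives were a replicate block, each array left out, a filter at the median level, an intensity trend with robust prior, median centring, quantile normalization, array weights, the mean of a gene's rows, each row separately, an unmoderated test and a fold of at least 1.5. The members, lists and tests were chosen with earlier results of these data known. Named genes are the 10 members, the 3 smallest p of each pathway list and leading markers. Ccne2, Suv39h1, Rbx1, Trp53 and Prl3d1 had no single-gene row and were not analysed here. Figures were drawn with matplotlib 3.10.9.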

Additional observations from a re-analysis of the deposited data

How the results depend on the processing

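Same-numbered arrays did not deviate together (r from 0.00845 to 0.0192 across genes, and not each array correlated best with its own number), so the numbers give no pairing. With the replicate number as a block, the same 4 genes were called among the 10, and all genes called fell to 964 higher and 1329 lower and pathway genes called lower to 5. By list, the block took chromatin partners from 1 higher and 3 lower to 0 and 1, G1 and S phase genes from 2 higher to 1, MuvB and DREAM genes from 1 lower to 0, and the Arf and Mdm2 axis from 2 higher to 1. Leaving out 1 array gave 0 or 1 member higher and 2 to 4 lower, 685 to 2484 genes higher and 1043 to 2911 lower, and 7 to 16 pathway genes higher and 3 to 16 lower. The highest of each came without miR-302 replicate 1. Pathway genes called lower were 16 when genes under the median level were dropped and 17 with an intensity trend and robust prior. In these fits 22.4% of the genes kept and 11.6% of all genes were called lower, against 9.25% in the full fit. Array weights called 2617 genes higher, and 16 pathway genes higher and 16 lower. The unmoderated test called 0 members higher and 2 lower, without Rbl2, and 998 genes higher and 1343 lower. A fold change of at least 1.5 left 1 member lower (Rbl2), 636 genes higher and 925 lower, and 4 pathway genes higher and 3 lower. Changes near 0 turned sign: Cdkn2b was 0.057 with quantile normalization, 0.062 with array weights and −0.068 to 0.087 with 1 array left out, and Cdkn2d was −0.010 with median centring and −0.018 to 0.067 with 1 array left out. The cause was not tested. Centring moved the median of all genes by under 0.1.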

Other observations

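Beside the rows used for Rb1, 2 rows are annotated to both Rb1 and Lpar6, a receptor gene that lies in an intron of Rb1, and were left out of the comparison. In the first, the values were 9.29, 9.25 and 9.35 in control cells and 8.89, 9.89 and 9.77 with miR-302. In the second they were 6.87, 6.88 and 6.78 against 6.79, 7.04 and 7.04. In both, miR-302 replicates 2 and 3 lay above the controls, whereas both rows of Rb1 alone were lower on these arrays. Which of the genes these rows report was not tested.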
